A study of Mus musculus with 21 samples.

Results

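Inflammatory monocytes (IMs) sorted from the bone marrow (BM) of tumor-free DBA2 mice were compared with those of tumor-free FVB mice. The comparison used the 3 DBA2 and the 3 FVB BM libraries, 6 of the 21 libraries in the series, chosen by their sample labels. Both groups were untreated mice labelled naive and healthy, and no transgene or other allele was named for either. The ages of these mice, their sex and the DBA2 substrain were not given in the sources used here. BM IMs served as the tumor-free reference for tumor-infiltrating IMs (TIMs). TIMs came from lung metastases of the squamous carcinoma line LN4K1 injected into a vein of DBA2 mice, and from primary tumors and lymph node metastases of the squamous carcinoma line LN2E1 placed in the lung of FVB mice, with 5 libraries each. The question here was how far monocytes of the 2 strains already differed without a tumor.

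IMs are Ly6C-high classical monocytes, which leave the marrow through the chemokine receptor CCR2 and become macrophages or dendritic cells in inflamed tissue. Type I interferons act on these cells through a complex that holds STAT2 and IRF9 and binds an interferon-stimulated response element in target promoters, which switches on antiviral genes of the Oas, Ifit, Mx and Slfn families. Inbred strains also carry different haplotypes of the major histocompatibility complex (MHC) on mouse chromosome 17, which encodes the class I and class II antigen-presenting proteins.

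The sorted cells carried monocyte RNA. Lyz2, the lysozyme of myeloid cells, lay between 41648 and 62852 counts per 1000000 counts (CPM, scaled between libraries by the trimmed mean of M values) in the 6 libraries. Ly6c2, which encodes the Ly6C antigen of the sort, lay between 2434 and 3600 CPM and overlapped between the strains. Of the 6 sort marker genes tested, 1 was called different, against 21.1% of all genes. It was the macrophage antigen gene Emr1, at a log2 fold change of 0.45 ± 0.13 (SE, DBA2 minus FVB, n = 3 per strain, adjusted p = 0.0438 by edgeR's quasi-likelihood test). None of the 6 was called with upper-quartile scaling, in a fit of all 5 groups, or without any single library other than FVB library 3. Total counts lay between 81872688 and 94315412 per library. Xist, expressed from the inactive X chromosome of females, lay between 64.8 and 85.7 CPM in all 6 libraries, and the Y-linked genes Uty, Kdm5d, Eif2s3y and Ddx3y held 0 or 1 count.

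One FVB library stood apart from the other two. The root mean square difference in log2 CPM was 0.266 between FVB libraries 1 and 2, but 0.501 and 0.413 between library 3 and those, against 0.274 to 0.312 among DBA2 libraries. FVB library 3 was also nearer to the DBA2 libraries (0.519 to 0.624) than FVB library 1 was (0.719 to 0.812). The ribosomal RNA gene Rn45s took 2.04%, 1% and 0.623% of the counts in FVB libraries 1, 2 and 3, and 0.109%, 0.207% and 0.187% in the DBA2 libraries. The study's methods speak of technical replicates, so p-values here measure the spread between these libraries, which may be technical.

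Of 12905 genes tested, 2719 differed between the strains at an adjusted p under 0.05 (21.1%), with 1484 higher in DBA2 IMs (11.5%) and 1235 lower (9.57%). With upper-quartile scaling, 1340 were higher and 1512 lower. A log2 fold change above 1 in either direction was also met by 1242 genes (9.62%), 704 of them higher (5.46%) and 538 lower (4.17%). At the study's thresholds for its differentially expressed genes (DEGs), an adjusted p under 0.0001 with that fold change, 52 genes passed in edgeR (0.403%). Of these, 36 were higher (0.279%) and 16 lower (0.124%). The study, however, applied these thresholds to DESeq2 with shrunken fold changes. DESeq2 with shrinkage gave 704 genes here, 387 higher and 317 lower. Without FVB library 3 the first count was 4828 and the second 1697, whereas without any other single library they lay between 1115 and 1773 and between 778 and 1105. The edgeR count of 52 was 189 without FVB library 3 and between 0 and 9 without any other single library. The 3 libraries of one strain did not overlap those of the other for 42.0% of the genes tested. Reads were aligned to the mm10 genome, which is of the C57BL/6J strain. Differences in RNA level and in how well the reads of each strain matched that genome cannot be told apart.

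Genes of the type I interferon response were higher in DBA2 BM IMs. Of 41 such genes tested, 38 were called higher, 1 lower (Slfn2, a schlafen family gene) and 2 were not called (Xaf1 and Isg20), and their median log2 fold change was 1.63. Across all genes tested 11.5% were called higher and the median was 0.00. The 41 genes held 2340, 2473 and 1948 CPM together in the FVB libraries and 3794, 4999 and 3939 CPM in the DBA2 libraries, so the groups did not overlap. The count of genes called higher stayed between 34 and 39 under every other setting tried, and it was 38 without FVB library 3.

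Among the leading members were Ifi44 and genes of the oligoadenylate synthetase, schlafen and Ifit families. Oas2, which makes the second messenger that activates RNase L, lay at 2.14, 2.41 and 4.58 CPM in FVB IMs and at 33.4, 47.6 and 45.3 CPM in DBA2 IMs. Its log2 fold change was 3.80 ± 0.33 (SE, n = 3 per strain, adjusted p = 0.000242 by edgeR's quasi-likelihood test). Its neighbor Oas3 lay at 0.818, 0.346 and 1.12 CPM in FVB and at 10.5, 29.3 and 17.5 CPM in DBA2 (4.66 ± 0.53, adjusted p = 0.00104 by edgeR). Both genes lie on chromosome 5, at chr5:120730333-120749886 and chr5:120753098-120777684 (GRCm38, which is mm10). In neither gene did the strains overlap, and DBA2 library 1 was the lowest of its group for both.

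Slfn8, a schlafen gene, was tighter, at 18.8, 18.6 and 20.0 CPM in FVB and 171, 256 and 218 CPM in DBA2 (3.51 ± 0.16, adjusted p = 1.68e-05 by edgeR). Ifit3, whose protein binds viral RNA together with Ifit1, lay at 7.88, 7.81 and 7.27 CPM in FVB and 70.0, 79.8 and 60.2 CPM in DBA2 (3.22 ± 0.14, adjusted p = 1.68e-05 by edgeR). Ifi44, an antiviral gene, held 3, 53 and 32 counts in FVB and 439, 795 and 530 in DBA2 (4.40 ± 0.74, adjusted p = 0.00588 by edgeR). FVB library 1 sat at the 3 counts taken here as the limit of a count of 0, so that this fold is uncertain.

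Other called members, with transducers and sensors of the pathway among them, lay nearer to the list's median log2 fold change of 1.63. The leading members above were named for their large differences. Irf7, the transcription factor that amplifies interferon production, lay at 97.8, 109 and 74.1 CPM in FVB and 259, 333 and 244 CPM in DBA2, a log2 fold change of 1.60 ± 0.16. For Stat2 the value was 1.61 ± 0.23 and for Irf9 0.78 ± 0.10. The RNA sensor genes Ddx58 and Ifih1 were at 1.56 ± 0.21 and 1.55 ± 0.25. Usp18, which removes Isg15 from proteins and dampens the interferon receptor, was at 1.78 ± 0.25, and Isg15 itself at 2.12 ± 0.31. Mx1 and Mx2, which block viral replication, were at 1.81 ± 0.14 and 1.54 ± 0.17. Each of these 9 genes was called higher, with 3 libraries per strain that did not overlap. Genes in the Oas1, Ifit and Slfn families have near-identical copies, and the division of reads among copies is uncertain.

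**Figure D1:**
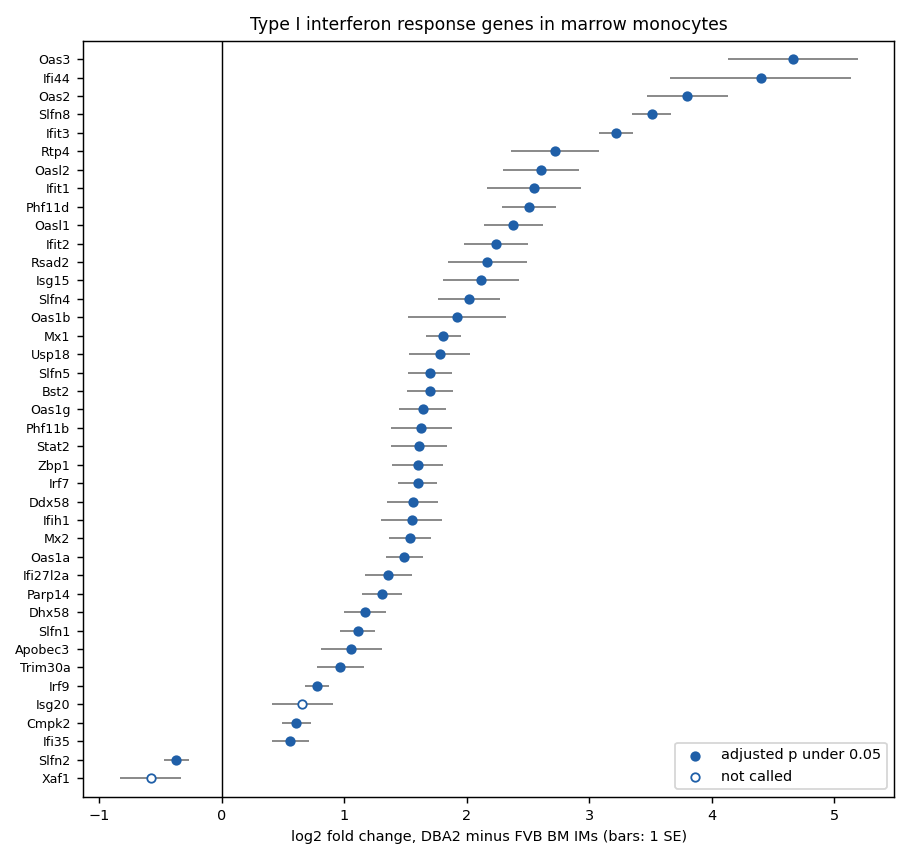
Log2 fold change (DBA2 minus FVB BM IMs, 3 libraries each) of the type I interferon response genes reported here, with bars of 1 SE. Filled points had an adjusted p under 0.05, and the points other than Xaf1 and Slfn2 lie to the right of 0, from Ifi35 at 0.56 to Oas3 at 4.66.

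Promoter sequences were examined for the letters of the interferon-stimulated response element, since the members moved together. The motif, TTTC followed by any 2 bases and TTTC again, was searched on both strands, overlapping matches included, from 250 bases before to 50 bases after the RefSeq start of each gene (GRCm38.p6, the C57BL/6J sequence and not that of either strain). Of the 41 list members 30 had a promoter in that table, and 16 of these held the motif (53.3%). It was present for 361 of the 9479 tested genes with a promoter (3.81%), for 55 of 512 called higher with a log2 fold change above 1 (10.7%) and for 11 of 398 called lower by as much (2.76%). The 512 genes called higher include members of the interferon list, so their share is not separate from that of the list. These shares are descriptions of letters in the reference and show nothing about binding. Stretches upstream of the RefSeq starts of 4 members called higher are given as examples of the motif's place. They run 5′ to 3′ on the gene's own strand, with its matches in capitals.
Slfn8 (chr11:83020811-83020910, minus strand): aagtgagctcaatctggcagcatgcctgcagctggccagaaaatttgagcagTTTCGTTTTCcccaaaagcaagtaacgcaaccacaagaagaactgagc
Ifit3 (chr19:34583362-34583461, plus strand): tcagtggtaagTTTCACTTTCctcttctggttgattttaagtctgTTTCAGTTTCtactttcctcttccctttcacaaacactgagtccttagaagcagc
Ifit1 (chr19:34640759-34640858, plus strand): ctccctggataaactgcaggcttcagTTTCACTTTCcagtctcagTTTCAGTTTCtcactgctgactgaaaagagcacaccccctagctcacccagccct
Isg15 (chr4:156200830-156200929, minus strand): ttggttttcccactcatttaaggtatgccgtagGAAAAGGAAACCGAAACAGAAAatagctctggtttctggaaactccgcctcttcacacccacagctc
The bases at the RefSeq start matched the beginning of a GENCODE transcript for Slfn8 and Isg15 but not for Ifit3 and Ifit1, whose starts are less certain. In Slfn8 there was 1 match of the motif, and Ifit3 and Ifit1 each held 2. In Isg15 the capitals join 3 overlapping matches of the reverse strand.

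Neighboring interferon-induced families went the same way in part. In the Ifi200 cluster on chromosome 1, whose proteins sense DNA, 8 of 11 genes tested were called higher and none lower. Across all genes tested 11.5% were called higher and 9.57% lower. The cluster's median log2 fold change was 1.07. Ifi205 led at 1.74, 2.2 and 2.19 CPM in FVB and 26.9, 29.8 and 26.4 CPM in DBA2 (3.78 ± 0.18, adjusted p = 1.68e-05 by edgeR). Of 15 interferon-induced GTPase genes, which attack vacuoles around intracellular microbes, 8 were called higher and 2 lower, with 5 higher without DBA2 library 2 or without FVB library 2. Gbp6 rose from 0.409, 0.408 and 0.25 CPM in FVB to 5.35, 7.08 and 5.53 CPM in DBA2 (4.10 ± 0.34), whereas Gbp9 fell from 10.8, 8.54 and 8.33 CPM to 1.34, 1.84 and 2.01 CPM (-2.39 ± 0.25). Gbp8 and Gbp9, the 2 lower ones, share exon bases with each other and with Gbp4, so their reads cannot be assigned with certainty. Cxcl10, an interferon-induced chemokine that attracts T cells, was at 6.24, 3.43 and 3.88 CPM in FVB and at 15.9, 13.2 and 11.6 CPM in DBA2 (1.61 ± 0.27).

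MHC genes differed in both directions. Of 26 genes of the class I pathway, 11 were called higher and 3 lower, against 11.5% and 9.57% of all genes. H2-Q5, a nonclassical class I gene at chr17:35394099-35395630, lay at 5.69, 3.71 and 3.38 CPM in FVB and at 104, 96.7 and 103 CPM in DBA2 (4.60 ± 0.21, adjusted p = 1.68e-05 by edgeR). H2-T23, which encodes the Qa-1 molecule seen by NK cell receptors, lay at 112, 98.7 and 74.4 CPM in FVB and 484, 491 and 448 CPM in DBA2 (2.35 ± 0.14). H2-M2 held 14, 5 and 4 counts in FVB and 710, 649 and 672 in DBA2. The classical genes moved little, H2-K1 at 0.65 ± 0.17 and H2-D1 at -0.49 ± 0.13, and the light chain B2m was not called (-0.09 ± 0.17, adjusted p = 0.73 by edgeR). Nlrc5, the transactivator of class I genes, was higher, at 1.95 ± 0.33.

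In class II, 3 of 11 genes were called higher and 3 lower, against 11.5% and 9.57% of all genes. H2-Eb1, the E beta chain, lay at 2.65, 3.53 and 1.08 CPM in FVB and at 39.4, 38.2 and 48.8 CPM in DBA2 (4.16 ± 0.39, adjusted p = 0.000368 by edgeR). H2-Ea-ps, the symbol of the E alpha chain, which is a pseudogene in the C57BL/6J reference, lay at 8.49, 6.68 and 4.48 CPM in FVB and 43.5, 48.2 and 48.8 CPM in DBA2 (2.87 ± 0.22). The peptide-loading chains H2-DMb1 and H2-DMb2 were lower in DBA2, at -1.99 ± 0.14 and -1.05 ± 0.12. Haplotypes of these genes differ in sequence, and their part in how many reads aligned was not tested.

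Of 15 classical monocyte genes, 5 were called higher in DBA2 and 1 lower, and of 12 genes of Ly6C-low monocytes 5 were higher and 2 lower, against 11.5% and 9.57% of all genes. Ccr2, the receptor that draws monocytes out of the marrow, lay at 705, 733 and 704 CPM in FVB and at 1247, 1379 and 1273 CPM in DBA2 (0.89 ± 0.08, adjusted p = 0.000422 by edgeR). Irf8, a transcription factor that monocytes need to develop, lay at 369, 347 and 415 CPM in FVB and 760, 848 and 762 CPM in DBA2 (1.09 ± 0.11). In both genes the strains were far apart against their spread. The other classical monocyte genes called higher were Fcgr1, Plac8 and Ly86, and Vcan, a matrix proteoglycan, was lower (-1.01 ± 0.15). Of the classical genes 3 were higher without DBA2 library 2 and 9 without FVB library 3, and of the Ly6C-low genes 3 were higher when any single library other than FVB library 3 was left out. Among the Ly6C-low genes called higher was Nr4a1, which patrolling monocytes need, but its FVB libraries were uneven at 92.1, 89.7 and 273 CPM against 418, 447 and 535 CPM in DBA2. Nr4a1 is also a member of the immediate early list below and is counted in both lists.

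Of 24 immediate early genes, which rise within minutes of stimulation or cell handling, 9 were called higher and none lower, against 11.5% and 9.57% of all genes. The list summed to 18664, 12311 and 15616 CPM in FVB and to 20832, 18703 and 34847 CPM in DBA2, with DBA2 library 3 well above the rest. The count fell to 4 without DBA2 library 3, and also to 4 without FVB library 1 and to 4 without FVB library 2. Egr1 did not depend on that library, at 44.1, 58.3 and 85.7 CPM in FVB and 195, 186 and 197 CPM in DBA2 (1.64 ± 0.23, adjusted p = 0.0024 by edgeR). Fosb, at 32.7, 10.8 and 17.6 CPM in FVB and 23.2, 30.0 and 191 CPM in DBA2, was not called.

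Genes of glutathione synthesis and reduction were among those lower in DBA2, although most of the glutathione and redox list was not called. Of 32 tested, 10 were called lower, 2 higher and 20 neither, against 9.57% of all genes called lower. The median log2 fold change was -0.26, and 11 of the 32 values were above 0. Gsr, the reductase that regenerates glutathione, at chr8:33653238-33698162, lay at 1284, 1169 and 955 CPM in FVB and at 230, 184 and 211 CPM in DBA2 (-2.42 ± 0.13, adjusted p = 3.23e-05 by edgeR). Gclc, the catalytic subunit of the enzyme for the rate-limiting step of glutathione synthesis, lay at 40.1, 37.4 and 20.9 CPM in FVB and at 5.26, 3.08 and 5.5 CPM in DBA2 (-2.80 ± 0.31, adjusted p = 0.000901 by edgeR). Its modifier subunit Gclm lay at 20.9, 17.8 and 13.1 CPM in FVB and at 4.13, 1.43 and 1.76 CPM in DBA2 (-2.79 ± 0.41). The 3 genes lie on different chromosomes. The peroxiredoxins Prdx6 (-1.04 ± 0.11) and Prdx1 (-0.52 ± 0.10) and the heme oxygenase Hmox1 (-0.87 ± 0.13) were also called lower. Gpx3 and Mgst2 were the 2 called higher, and Gpx1, the most abundant member, was at 0.05 ± 0.11. The letters TGAC, any 3 bases and GC, of the antioxidant response element, were found on either strand of 7 of 26 promoters of the list (26.9%) and of 17.3% of those of tested genes. The 26 did not include Gsr or Gclc. The count of genes called lower was 6 without DBA2 library 2, 6 without FVB library 1, 6 without FVB library 2 and 13 without FVB library 3.

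Some markers of other cells were lower in DBA2, and their part in the strain differences was not tested. Of 13 eosinophil and basophil genes, 7 were called lower and none higher, against 9.57% and 11.5% of all genes. In a fit of all 5 groups only 1 was called. The basophil protease Mcpt8 lay at 83.6, 65.1 and 73.3 CPM in FVB and at 15, 8.61 and 8.1 CPM in DBA2 (-2.78 ± 0.25), and Cpa3, Gata2, Fcer1a and Ms4a2 were lower too. The eosinophil ribonuclease genes Ear1 (-1.38 ± 0.28) and Ear2 (-1.41 ± 0.17) were also called lower, whereas the eosinophil granule genes Prg2 and Epx were not called. The whole list summed to between 853 and 1433 CPM in FVB and between 502 and 1242 CPM in DBA2, which overlapped. In bulk samples, fewer cells of a type and less RNA per cell cannot be told apart. The sort took SiglecF- and Ly6G- cells, a gate meant to leave out eosinophils and neutrophils. In the 6 libraries Prg2 lay between 344 and 862 CPM and Epx between 66.3 and 209 CPM. Prss34, a basophil and mast cell protease and one of the leading genes, lay at 181, 147 and 147 CPM in FVB and at 11.0, 5.98 and 2.77 CPM in DBA2 (-4.56 ± 0.45, adjusted p = 0.000524 by edgeR).

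Neutrophil genes went both ways. Among 11 neutrophil precursor genes 4 were called lower and 1 higher, against 9.57% and 11.5% of all genes. The numbers were the same for 11 mature neutrophil genes. The median log2 fold changes of the 2 lists were 0.02 and 0.39, and in each 6 of the 11 values were above 0. Camp, an antimicrobial peptide, lay at 483, 429 and 672 CPM in FVB and at 124, 82.9 and 105 CPM in DBA2 (-2.32 ± 0.21). S100a9 lay at 674, 593 and 857 CPM in FVB and at 286, 197 and 231 CPM in DBA2 (-1.55 ± 0.19), and Ngp, Ltf and S100a8 fell as well. Cebpe, a regulator of granule genes, was higher in DBA2 (2.16 ± 0.36), and so was the neutrophil antigen gene Cd177 (0.41 ± 0.12). The summed precursor list ranged from 4536 to 5399 CPM in FVB and from 3321 to 4072 CPM in DBA2, without overlap. Both sums were highest in FVB library 3. In a fit of all 5 groups no precursor gene and 1 mature neutrophil gene were called lower. No mature neutrophil gene was called higher in that fit, with upper-quartile scaling, or without any single library other than FVB library 3.

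Macrophage genes were called lower in 5 of 12 and higher in 1, against 9.57% and 11.5% of all genes. Marco, a scavenger receptor, held 54, 141 and 45 counts in FVB and 0 in each DBA2 library, while C1qb fell by 1.61 ± 0.30 on the log2 scale. Siglec1 was higher, at 1.76 ± 0.40. The count of lower genes was 3 without DBA2 library 3, 3 without FVB library 2 and 1 in a fit of all 5 groups. The macrophage list summed to between 1215 and 1361 CPM in FVB and between 778 and 1930 CPM in DBA2. Red cell genes summed to between 5.53 and 15.2 CPM in FVB and between 1.82 and 2.85 CPM in DBA2, and platelet genes to between 27.9 and 153 CPM and between 2.91 and 46.1 CPM. In each of those 2 lists 2 genes were called lower. NK cell genes had 2 of 3 lower, B cell genes 1 of 6 higher (Cd22), T cell genes 1 of 5 lower, dendritic cell genes 2 of 11 higher and 1 lower, and progenitor genes 1 of 8 higher and 2 lower.

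**Figure D2:**
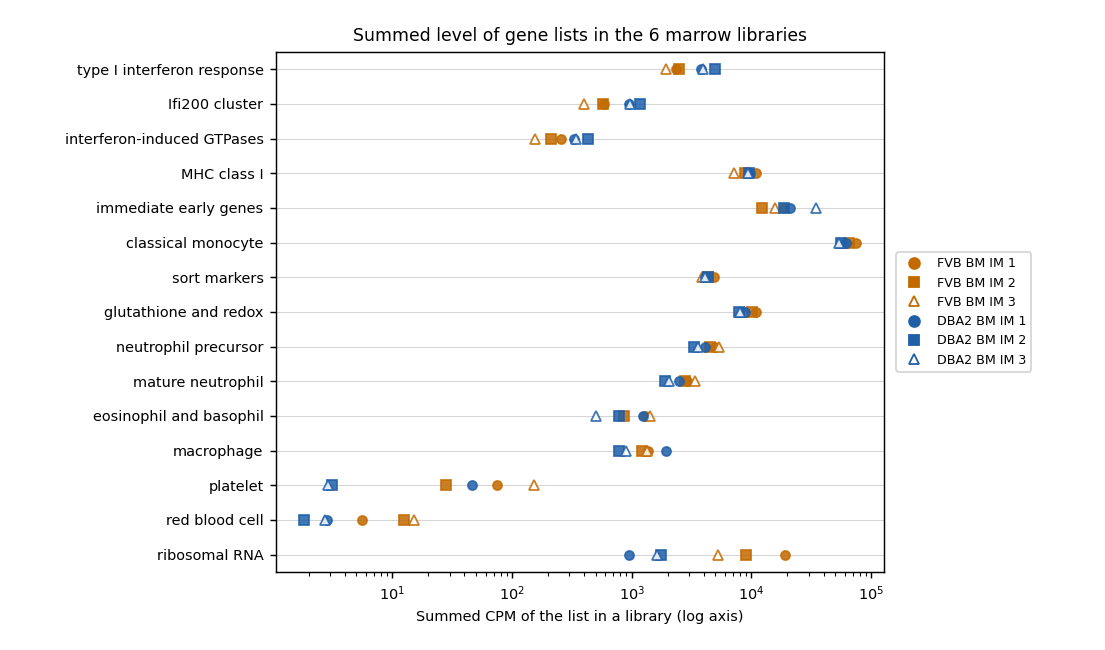
Summed CPM of 15 gene lists in each of the 6 marrow libraries, on a log axis, with orange for FVB and blue for DBA2 and a marker for each library number. The type I interferon, Ifi200 and GTPase sums of the strains do not overlap, those of the eosinophil and basophil list do, and Rn45s ranges from 954 CPM in DBA2 library 1 to 19094 CPM in FVB library 1.

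The genes with the largest differences above a mean log2 CPM of 3 were of many kinds. E330020D12Rik, a noncoding transcript on chromosome 1, rose from 1.82, 3.04 and 2.4 CPM in FVB to 62.8, 66.7 and 65.0 CPM in DBA2 (4.77 ± 0.21, adjusted p = 1.68e-05 by edgeR). Pim1, a serine kinase that promotes survival downstream of cytokine receptors, lay at 41.6, 29.6 and 37.9 CPM in FVB and at 600, 307 and 672 CPM in DBA2 (3.88 ± 0.30, adjusted p = 0.000146 by edgeR). Ms4a8a, a membrane protein of myeloid cells, lay at 2.76, 5.78 and 2.6 CPM in FVB and at 72.2, 53.1 and 53.6 CPM in DBA2 (4.04 ± 0.33). Even the lowest DBA2 library of Pim1 was over all FVB libraries. Capn1 (a calcium-dependent protease), Rgl2 (a Ras effector), Slc35c1 (the GDP-fucose transporter of the Golgi) and Rbm45 (an RNA-binding protein) completed the 10, with log2 fold changes from 3.63 to 3.73.

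In the opposite direction, Spp1, which encodes the secreted protein osteopontin, lay at 242, 237 and 159 CPM in FVB and at 2.66, 5.97 and 5.59 CPM in DBA2 (-5.46 ± 0.33, adjusted p = 5.00e-05 by edgeR). Pde2a, a phosphodiesterase of cyclic nucleotides, lay at 73.0, 83.6 and 135 CPM in FVB and at 3.22, 1.93 and 3.32 CPM in DBA2 (-5.09 ± 0.33). Gdpd3, a lysophospholipase D, and 9830107B12Rik were lower by -3.24 ± 0.15 and -3.69 ± 0.15. Rpl21 (-3.42 ± 0.18) has many processed copies in the genome, so that its value is uncertain. A further 4 genes of the 10 were uneven among FVB libraries. Alyref, an mRNA export factor, lay at 341, 134 and 21.6 CPM in FVB against 9.17 to 11.3 CPM in DBA2. Ppp2ca, Tmem243 and Mir466d were likewise lowest in FVB library 3 and highest in FVB library 1, the order that Rn45s had in those libraries, whose part in these values was not tested. Calls for Alyref were lost in 3 of the 6 fits without 1 library, for Tmem243 in 2 and for Ppp2ca in 1.

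Reads carried no strand. Pim1, Capn1, Gdpd3, Tmem243 and Ppp2ca share exon bases with an annotated gene on the opposite strand and Spp1, Pde2a and Rpl21 with one on the same strand, so that reads there could not be told apart.

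**Figure D3:**
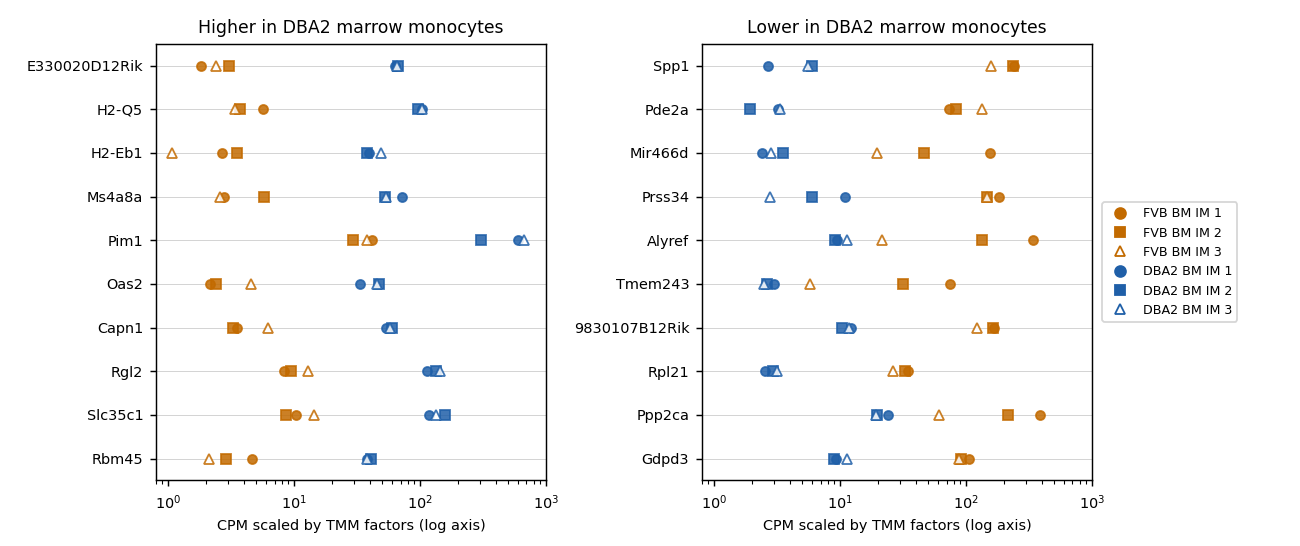
CPM in each marrow library, on a log axis, of the 10 genes with the largest positive (left) and the 10 with the largest negative (right) log2 fold change among called genes without overlap and with a mean log2 CPM above 3. Blue DBA2 points lie to the right of orange FVB points for genes such as Pim1 (307 to 672 against 29.6 to 41.6 CPM), and FVB points spread widely for Alyref (21.6 to 341 CPM).

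Some genes were read in one strain and hardly in the other. Called higher in DBA2 with at most 3 counts in every FVB library were 36 genes, and 47 were called lower with at most 3 counts in every DBA2 library. Slc44a3, a choline transporter-like gene, held 0 counts in FVB and 781, 789 and 638 in DBA2, at least 221-fold higher than the level that 3 counts give in an FVB library. Mtus2 held 0 counts in FVB and 281, 411 and 496 in DBA2, at least 119-fold higher. Camk2b, a calmodulin-dependent kinase subunit, held 3, 1 and 0 counts in FVB and 290, 137 and 201 in DBA2. Of the reverse kind, Bcat1, the cytosolic aminotransferase of branched-chain amino acids, held 136, 138 and 174 counts in FVB and 0 in DBA2, at least 47.4-fold lower in DBA2. Lypd6b held 125, 102 and 173 counts in FVB and Timp3, an inhibitor of metalloproteinases, 82, 66 and 268, with 0 in each DBA2 library. A count of 0 can reflect a sequence difference as well as a missing transcript, and which one was not tested.

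Alleles long known from the strains were also looked up. Klrd1, an NK receptor chain that the DBA/2J substrain lacks, held 5, 28 and 9 counts in FVB and 0 in each DBA2 library. Gpnmb, which carries a stop codon in DBA/2J, held 22, 82 and 0 counts in FVB and 0 in DBA2. Both were too low to be tested. Myo5a, the site of the dilute coat color allele, lay at 64.6, 59.1 and 71.1 CPM in FVB and at 138, 135 and 149 CPM in DBA2 (1.14 ± 0.11, adjusted p = 0.000535 by edgeR). Hc and Tyrp1 held no counts in any of the 6 libraries, and Tyr and Pde6b held at most 20.

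Other receptor and mediator lists were mixed, beside 11.5% higher and 9.57% lower among all genes. Higher and lower counts were 6 and 4 of 23 C-type lectin receptor genes, 7 and 6 of 29 paired immunoglobulin-like receptor genes, 4 and 1 of 18 Toll-like receptor genes, 4 and 1 of 20 inflammasome genes, 6 and 3 of 30 chemokine and receptor genes, 4 and 4 of 19 complement genes, 1 and 2 of 9 Fc receptor genes, 2 and 1 of 10 Ly6 genes and 2 and 2 of 26 cell cycle genes. Cd300e, an activating receptor of monocytes, held 676, 578 and 653 counts in FVB and 1, 0 and 42 in DBA2. The paralogs Nlrp1a and Nlrp1b, sensors of the inflammasome, went opposite ways. Nlrp1a lay at 4.26, 4.49 and 6.77 CPM in FVB and at 32.5, 39.0 and 41.9 CPM in DBA2 (2.88 ± 0.23), and Nlrp1b at 28.2, 30.1 and 49.2 against 18.7, 20.5 and 22.9 CPM (-0.78 ± 0.23). No inflammasome gene was called lower in a fit of all 5 groups or without DBA2 library 2, DBA2 library 3 or FVB library 2. Tlr1 fell by 1.20 ± 0.22 on the log2 scale, and Tlr11 and Tlr5 were higher.

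Of the study's 10 candidate genes, chosen on TIM and BM IM libraries of this series, 4 were called higher in DBA2 BM IMs and none lower, against 11.5% and 9.57% of all genes. Spon1, the secreted matrix protein spondin 1, held 14, 8 and 0 counts in FVB and 808, 1172 and 1661 in DBA2. Cfb, complement factor B, lay at 6.76, 6.92 and 8.42 CPM in FVB and at 22.8, 29.8 and 19.9 CPM in DBA2 (1.73 ± 0.20), and Csrnp1 was at 1.30 ± 0.24 and Ifitm2 at 0.46 ± 0.12. Il1b, Socs3, Klf7, Gadd45b, Sdcbp and Icam1 were not called. The spondin and receptor partner list, of which Spon1 is one, had 4 of 7 called higher, among them Tgfb1 at 1.8 ± 0.30 and Lrp1 at 0.77 ± 0.19. FVB library 3 was the FVB library nearest to DBA2 in both, for example at 18.6 CPM for Tgfb1 against 9.64 and 9.7 CPM in the others and 33.6 to 53.9 CPM in DBA2.

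**Figure D4:**
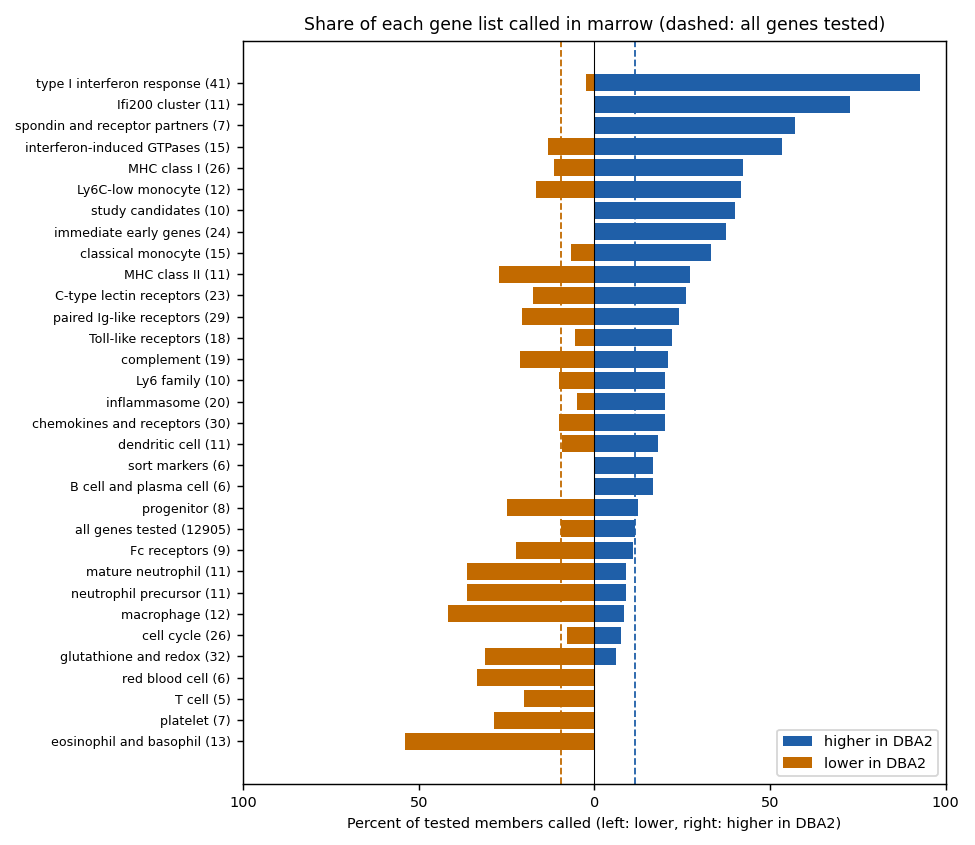
Percent of the tested members of each gene list called higher (blue, to the right) or lower (orange, to the left) in DBA2 BM IMs, with the number tested in brackets and dashed lines at the 11.5% and 9.57% of all genes. Only lists with at least 5 tested genes are drawn, and the interferon list reaches 38 of 41 on the right.

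Some of the genes that differed were neighbors in the genome. Of 1882 windows of 1 Mb with a tested gene, 48 held 4 or more called genes with an absolute log2 fold change above 1, and these windows, chosen for that number, held 259 of the 1233 such genes with a position and 1078 of the 12845 tested ones (8.39%). Some of them held 4 because many genes lie there, down to 4 of 41 tested (9.76%, against 9.62% of all genes). The class II and class I windows chr17:34000001-35000000 and chr17:35000001-36000000 held 11 of 48 and 9 of 50 tested genes. The window chr1:173000001-174000000 held 7 of 12, most of them Ifi200 genes, and chr19:34000001-35000000 held 7 of 13, among them Ifit1, Ifit2 and Ifit3. In chr5:120000001-121000000 the 5 such genes of 14 were Oas2, Oas3, Oas1a, Oas1b and Oas1g, all higher in DBA2. A window on chromosome 7, chr7:30000001-31000000, held 11 of 44 and mixed directions, with Cd22 higher and Sbsn lower. By chromosome, the share of tested genes called with that fold ran from 4.96% on X to 12.9% on 17, against 9.62% of all genes.

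Other libraries of the same 2 strains were available from tumors, with none shared with the marrow comparison. In these, strain changed together with the tumor line, route and tissue, which cannot be told apart. The 2 tumor comparisons share the LN4K1 lung libraries. Of 1465 genes called higher in DBA2 marrow and tested in both, 479 were called higher in LN4K1 lung TIMs than in LN2E1 primary tumor TIMs. That was 32.7%, against 23.4% of all genes tested in both, and 234 were called lower (16.0%, against 18.5%). Of 1207 called lower in marrow, 374 were called lower there too (31.0%, against 18.5%) and 182 higher (15.1%, against 23.4%). Among the 685 higher in marrow by a log2 fold change over 1, 258 were called higher there (37.7%, against 23.4%) and 123 lower (18.0%, against 18.5%). Among the 510 lower by as much, 228 were called lower (44.7%, against 18.5%) and 6 higher (1.18%, against 23.4%). Against lymph node TIMs, 356 of 1454 were called higher again (24.5%, against 11.1%) and 197 lower (13.5%, against 14.1%). Of 1181 lower in marrow, 337 were called lower again (28.5%, against 14.1%) and 65 higher (5.5%, against 11.1%).

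Several leading genes, and Gsr of the redox list, were called in the same direction between the tumor groups. Pim1 lay between 1373 and 2311 CPM in LN4K1 lung TIMs and between 123 and 203 CPM in the 10 LN2E1 libraries, with a log2 fold change of 3.81 against primary tumors (adjusted p = 8.13e-08 by edgeR, n = 5 per group). Gsr lay between 138 and 215 CPM in LN4K1 lung TIMs and between 787 and 1339 CPM in LN2E1 libraries (-2.64, adjusted p = 9.07e-07 by edgeR). H2-Eb1, Ms4a8a, E330020D12Rik, Pde2a, Gdpd3 and 9830107B12Rik were also called the same way in both tumor comparisons. For none of these 6 did the test of marrow against tumor difference, an interaction fitted with the primary tumor groups, pass an adjusted p under 0.05, which does not show that the differences were equal.

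Most interferon genes called in the tumor comparisons were lower in the DBA2 hosts, and the list was not tested as a whole for a difference between marrow and tumor. Of the 41, 5 were called higher and 20 lower in LN4K1 lung TIMs than in LN2E1 primary tumor TIMs, against 21.5% higher and 20.4% lower among all genes tested there, and the median log2 fold change was -0.44. Against lymph node TIMs 2 were higher and 27 lower, against 10.9% and 13.9%, with a median of -1.01. The list summed to between 5588 and 7392 CPM in LN4K1 lung, between 7078 and 9079 CPM in primary tumor and between 9274 and 12455 CPM in lymph node libraries, above every marrow library. Oas2 lay between 69.8 and 129 CPM in LN4K1 lung TIMs and between 128 and 193 CPM in primary tumor TIMs (-0.63, adjusted p = 0.0117 by edgeR). The marrow difference of Oas2 minus this tumor difference was 4.46 ± 0.37 (SE, adjusted p = 7.22e-06 by edgeR's interaction test). Oas2 had been chosen for a large difference in the same marrow libraries, which favors such a gap. Slfn8 lay between 164 and 238 CPM in LN4K1 lung TIMs against 53.7 to 102 CPM in LN2E1 libraries.

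**Figure D5:**
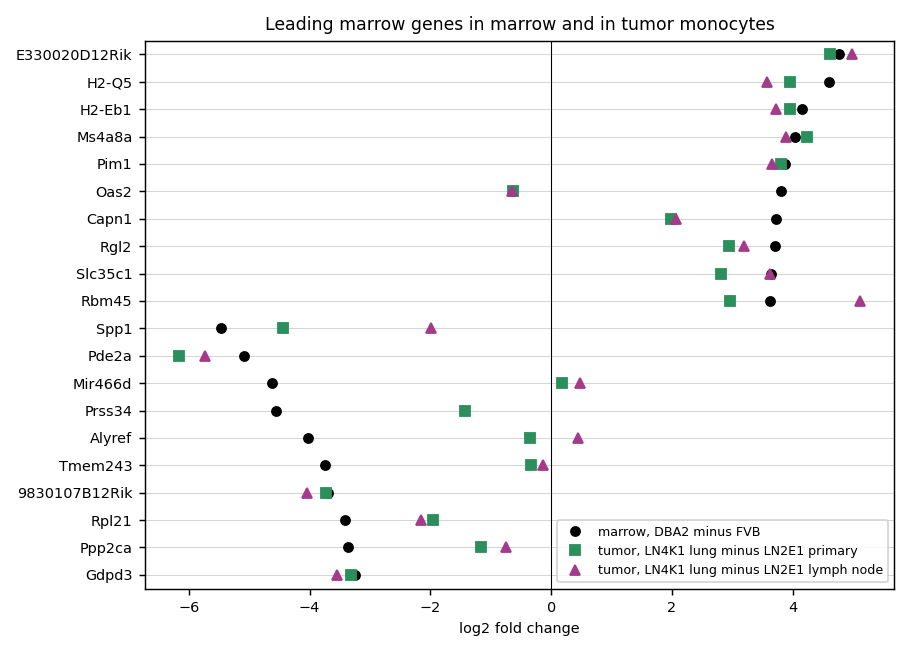
Log2 fold change of the 20 leading genes in marrow (circles, DBA2 minus FVB) and in TIMs (LN4K1 lung in DBA2 hosts minus LN2E1 primary tumor, squares, or lymph node, triangles, in FVB hosts). Pim1 sits at 3.88, 3.81 and 3.65, while Oas2 sits at 3.80 in marrow and at -0.63 and -0.64 in tumors.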

How the data were processed

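IMs (SiglecF- CD45+ CD11b+ Ly6G- Ly6C-high) were enriched and sorted, and non-stranded libraries were made by SMART amplification and Nextera XT. The deposited values are raw read counts per gene symbol (23420 symbols), for which the authors trimmed reads with BBDuk, aligned them to mm10 with BBMap and counted with featureCounts 1.5.2 (Subread), with SAMtools 1.8 per the submitters' processing notes. The featureCounts settings were not given in the sources used here.

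Groups came from sample labels. The 3 DBA2 and 3 FVB libraries were fitted in edgeR 4.0.16 (R 4.3.3) with TMM factors, filterByExpr (minimum count 10, minimum total 15) and the quasi-likelihood test in its robust form, and p-values were adjusted by Benjamini and Hochberg's method over all genes tested. TIM comparisons and the interaction were fitted likewise. A called gene had an adjusted p under 0.05. The SE is the absolute log2 fold change divided by the square root of F. CPM was scaled by TMM factors over 21 libraries. The floor was 3 counts and covers counting error only. A test of 3 against 3 libraries by exact permutation cannot go below 0.1, so none was used.

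Genes were named by rule: the 10 largest differences each way (above), 5 each way with at most 3 counts in the other strain, up to 4 called genes per list, all genes of small reference lists, and called genes in the windows with 4 or more. Some list members enter the counts but are not reported here by name. Gene lists and comparisons were chosen with earlier results of these data known. Positions and promoters came from RefSeq GRCm38.p6 (12845 of 12905 genes placed) and exon overlaps from GENCODE vM21. Replicate numbers did not pair libraries (correlations of same-numbered deviations 0.0259, 0.0319 and 0.0281). Replicate libraries differed by 89.7 to 319.1 times the counting noise, so none was a copy. Alternatives were DESeq2 1.42.0, other scalings and filters, no robust estimation, a replicate block, all 5 groups in one fit and leaving out each library. The script for the marrow fit was tested on simulated counts.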

Additional observations from a re-analysis of the deposited data

Results flagged for a closer look

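For 8 of the 20 leading genes the marrow difference (DBA2 minus FVB) differed from the difference between LN4K1 lung and LN2E1 primary tumor TIMs. This was by edgeR's interaction test at an adjusted p under 0.05, which 26.5% of the 15182 genes in that fit passed. The 20 genes were chosen for large differences in the same marrow libraries, which favors a gap to the tumor value. The 2 shares are therefore not like for like. The marrow minus tumor value on the log2 scale was 4.46 for Oas2, 1.76 for Capn1, 0.79 for Rgl2 and 0.67 for H2-Q5, and it was -4.77 for Mir466d, -3.63 for Alyref, -3.37 for Tmem243 and -1.44 for Rpl21.

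Single libraries lay far from the rest of their group of 5 by Dixon's test at 7 places in 60 gene and group pairs, of which chance flags about 1 in 20. The highest library was at 49.8 CPM for E330020D12Rik, at 597 CPM for H2-Eb1 and at 8.2 CPM for 9830107B12Rik in LN4K1 lung TIMs. It was at 16.5 CPM for Ms4a8a in primary tumor TIMs, and at 28.8 CPM for Ms4a8a and 241 CPM for Prss34 in lymph node TIMs. Rgl2 was lowest at 92.1 CPM in one LN4K1 lung library. Marrow groups of 3 were not tested for this.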

How the results depend on the processing

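The marrow count of 2719 called genes was 1595 in a fit of all 5 groups and between 1115 and 4828 when 1 library was left out, and the cause was not tested. The higher value came without FVB library 3. The count with a log2 fold change above 1 was between 778 and 1697 when 1 library was left out, and within 1.5 times under the other settings. The count of 52 genes at the study's thresholds was 704 and 784 with DESeq2 (shrunken and unshrunken), 140 in a fit of all 5 groups, 111 with a filter of 1 count in total, 86 with 10 counts in each library, and between 0 and 189 when 1 library was left out. The genes called the same way in marrow and primary tumor comparisons, 853 in both directions, numbered between 496 and 1008 when 1 library was left out, and those for the lymph node comparison, 693, between 423 and 819. The replicate block, although the numbers did not pair libraries, gave 2392 called genes in marrow, 1181 with a log2 fold change above 1 and 0 at the study's thresholds, and 39 interferon genes called higher. The log2 fold changes of 372 named genes were followed across settings, and some signs changed. Of the 10 study candidates, 10 values were above 0 in the main fit, 8 without DBA2 library 3 and 9 with the replicate block. Calls were lost for 93 in a fit of all 5 groups, 40 with the replicate block and between 16 and 117 when 1 library was left out. With 3 libraries per strain, low genes have wide errors.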
